A study of Mus musculus with 9 samples.

Results

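The 9 minichromosome maintenance genes, *Mcm2* to *Mcm10*, were examined for BAP1 binding in Ba/F3 cells. They were chosen by name from the 37273 genes of the GENCODE M1 annotation on mouse build mm9, of which 22367 are protein-coding. For each gene, every BAP1 ChIP-Seq peak with its middle within 1 kb of any of the gene's transcription start sites (TSS) was taken, which gave 14 of the 13164 peaks in the list. Such peaks are called gene-proximal. Distances are signed along the gene, so that a negative value lies upstream of the TSS.

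Ba/F3 is a murine B cell lineage precursor line that grows in the presence of IL-3, here supplied by WEHI conditioned media. The peak list drew on 2 of the 9 samples of the series. One was a chromatin immunoprecipitation of untagged wild type cells with 52.8 μg of an antibody to BAP1 itself. The other was an immunoprecipitation with 5 μg of anti-FLAG M2 antibody from a puromycin-selected Ba/F3 line in which a mouse BAP1 transgene bears a triple-FLAG tag, so that this sample reports on an introduced BAP1 rather than the protein at its own level. Each antibody was used on 1 sample, both samples share 1 peak list, and the list holds positions only. There is thus no replicate spread, height, score or depth in the list for any peak below, differences between the antibodies or between genes in the amount of BAP1 were not analysed here, and the identity of the cells could not be checked against markers. Input DNA, and the H2AK119ub samples of wild type cells and of the Bap1 knockout clones KO3 and KO4, were not analysed here.

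Mcm2 to Mcm7 are the subunits of the ring-shaped helicase that is loaded onto replication origins in G1 and unwinds DNA in S phase. Mcm8 and Mcm9 are related proteins that form a separate complex used in homologous recombination, and Mcm10 is an unrelated protein that helps to activate the loaded helicase. Genes of this family are transcribed in a cell cycle dependent way, and E2F factors are known regulators of several of them. BAP1 is a deubiquitinase that removes ubiquitin from the tail of histone H2A.

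The sequences under 7 of the peaks are shown as examples of the motif matches and the gene-to-gene differences described further on. For each gene it is the peak nearest to a TSS, on mm9, 5′ to 3′ along the gene, ending at most 30 bases past its most upstream TSS in GENCODE or RefSeq. The exception is *Mcm9*, where the peak lies downstream of the GENCODE start. There the whole peak is shown, with the RefSeq start at its 3′ end. Capitals mark matches on either strand to CCAAT, to the E2F core words (TTCCCGC, its relative TTGGCGC, the word TTCGCGC and the word TTGCCGC) or to the cAMP response element TGACGTCA, where the whole match lies in the stretch shown. *Mcm2* and *Mcm9* hold none. The peaks of *Mcm7* and *Mcm8*, which also hold CCAAT, are not shown.
Mcm2 (chr6:88848745-88848889, minus strand): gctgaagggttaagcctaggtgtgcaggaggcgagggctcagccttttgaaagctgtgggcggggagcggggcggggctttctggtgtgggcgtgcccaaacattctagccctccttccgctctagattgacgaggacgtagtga
Mcm3 (chr1:20810364-20810540, minus strand): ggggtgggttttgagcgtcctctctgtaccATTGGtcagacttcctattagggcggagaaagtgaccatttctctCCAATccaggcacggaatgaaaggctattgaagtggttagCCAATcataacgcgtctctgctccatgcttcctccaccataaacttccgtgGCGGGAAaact
Mcm4 (chr16:15637464-15637663, minus strand): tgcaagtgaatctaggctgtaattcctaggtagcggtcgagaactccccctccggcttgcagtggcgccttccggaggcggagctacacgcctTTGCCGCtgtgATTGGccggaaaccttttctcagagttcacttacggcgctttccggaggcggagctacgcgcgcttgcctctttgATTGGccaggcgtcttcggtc
Mcm5 (chr8:77633263-77633437, plus strand): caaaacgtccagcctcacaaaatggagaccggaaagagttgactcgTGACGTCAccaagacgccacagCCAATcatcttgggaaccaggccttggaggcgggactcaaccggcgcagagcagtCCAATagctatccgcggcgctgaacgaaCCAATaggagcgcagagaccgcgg
Mcm6 (chr1:130256253-130256355, minus strand): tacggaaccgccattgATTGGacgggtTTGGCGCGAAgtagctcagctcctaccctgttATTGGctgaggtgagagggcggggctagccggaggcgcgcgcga
Mcm9 (chr10:53349762-53349961, minus strand): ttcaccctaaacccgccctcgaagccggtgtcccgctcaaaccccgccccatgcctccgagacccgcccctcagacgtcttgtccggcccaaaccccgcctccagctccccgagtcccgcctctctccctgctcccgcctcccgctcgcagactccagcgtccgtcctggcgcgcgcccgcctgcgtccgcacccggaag
Mcm10 (chr2:4933808-4934002, minus strand): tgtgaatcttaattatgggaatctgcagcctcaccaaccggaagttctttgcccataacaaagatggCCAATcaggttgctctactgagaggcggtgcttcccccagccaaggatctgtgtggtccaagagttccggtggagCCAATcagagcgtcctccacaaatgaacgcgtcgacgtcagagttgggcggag

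BAP1 peaks were found at all 9 *Mcm* genes. The share of 9 of 9 has a 95% Wilson interval of 70.1% to 100%, which covers counting error only. Of all protein-coding genes, 39.6% had a gene-proximal peak, with an interval of 38.9% to 40.2%. The 9 genes were no random sample and were chosen with earlier results of these data known, so the intervals are not a test of a difference. More than 1 peak was listed at *Mcm4*, *Mcm5*, *Mcm7* and *Mcm9*, that is 4 of 9 genes, against 10.1% of protein-coding genes, or 25.5% of those with any peak. Among the 14 peaks, 6 shared bases with another peak of the list, as did 15.0% of the 10073 gene-proximal peaks, so several of the additional peaks are adjoining calls rather than separate regions.

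**Figure D1:**
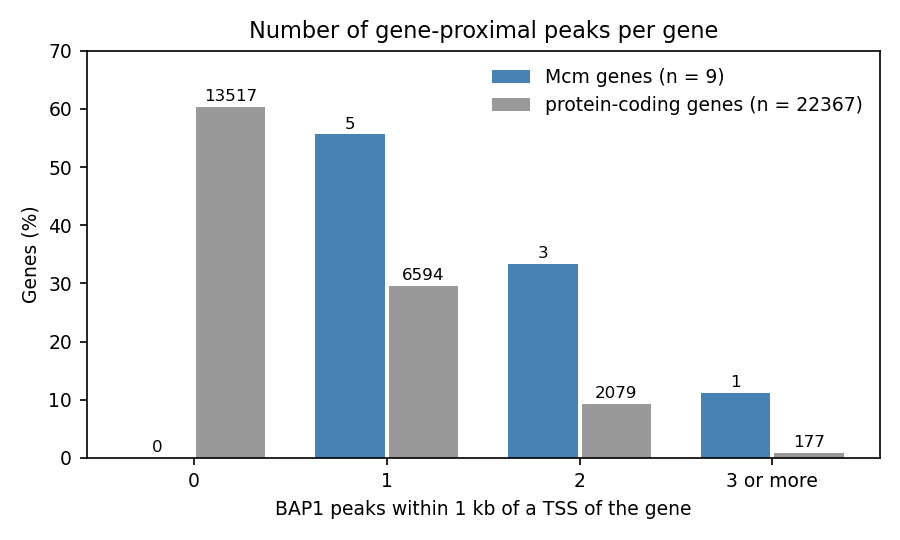
Share of genes (%) with 0, 1, 2 or 3 or more BAP1 peaks within 1 kb of a TSS, for the Mcm genes and for all protein-coding genes, with the number of genes above each bar. None of the 9 Mcm genes is in the group without a peak, which holds 13517 protein-coding genes.

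Among the subunits of the helicase, *Mcm2*, *Mcm3* and *Mcm6* had 1 peak each, and each of these peaks covered the TSS. Mcm2 carries a histone-binding tail, and the peak at its gene (chr6:88848690-88848889) had its middle 15 bp upstream of the TSS at 88848774, with 85 of its 200 bases in the 5′ untranslated exon. The peak at *Mcm3* (chr1:20810341-20810540) was centred at -81 bp and reached 19 bases into the untranslated exon. The peak at *Mcm6* (chr1:130256156-130256355) was centred at -22 bp, with 78 bases in the exon. Hence these 3 peaks lay mostly before the gene, and to different extents over its first exon.

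*Mcm4* and *Mcm5* had a peak over the TSS and a further one upstream. At *Mcm4*, whose product is a target of the kinase Cdc7, the peaks (chr16:15637464-15637663 and chr16:15637609-15637808) were centred at -70 and -215 bp and shared 55 bases. The peaks at *Mcm5* (chr8:77633263-77633462 and chr8:77633020-77633219) were centred at -65 and -308 bp with 43 bases between them. Mcm5 meets Mcm2 at the gate of the helicase ring. In both genes the upstream peak lay wholly outside the annotated gene.

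*Mcm7* was the member with the most peaks, 3, and with 10 annotated transcripts that start at 10 different positions, of which 8 had a peak within 1 kb. The first peak (chr5:138612397-138612596) was centred 2 bp upstream of a TSS at 138612494. It shared 92 bases with the second (chr5:138612289-138612488), whose middle lay at 81 bp, downstream of a TSS at 138612469, within an untranslated exon. The third (chr5:138613167-138613366) was 770 bp from the first between middles, at -220 bp from its nearest own TSS at 138613046 and at 384 bp from the most upstream one. *Mcm7* peaks therefore formed a pair of overlapping calls at internal start sites and a separate call inside an untranslated exon of the longest transcript.

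Outside the helicase, *Mcm8* and *Mcm10* resembled *Mcm2* to *Mcm6* in the position of the peak. The *Mcm8* peak (chr2:132641716-132641915) was centred at -62 bp and the *Mcm10* peak (chr2:4933803-4934002) at -65 bp, and both covered the TSS. *Mcm10* has 10 annotated start positions, of which 4 had the peak within 1 kb. *Mcm9* stood apart, with peaks (chr10:53349762-53349961 and chr10:53349627-53349826) centred at 384 and 519 bp downstream of the annotated start, in its coding sequence as annotated. Neither of them covered a GENCODE TSS.

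The position at *Mcm9* depended on the gene model. RefSeq promoter sequences (GRCm38.p6) were placed on mm9 by exact match for 8 of the 9 genes, and the *Mcm9* start then fell at 53349763, 482 bp downstream of the GENCODE start. From there the *Mcm9* peaks were at -98 and 37 bp, and both covered the start. At *Mcm6* the RefSeq start lay 49 bp further upstream, which put the middle of the peak at 27 bp downstream in place of -22 bp. The upstream *Mcm7* peak was at -155 bp from a RefSeq start at 138613111. For *Mcm2*, *Mcm8* and *Mcm10* the distances were the same in both annotations.

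**Figure D2:**
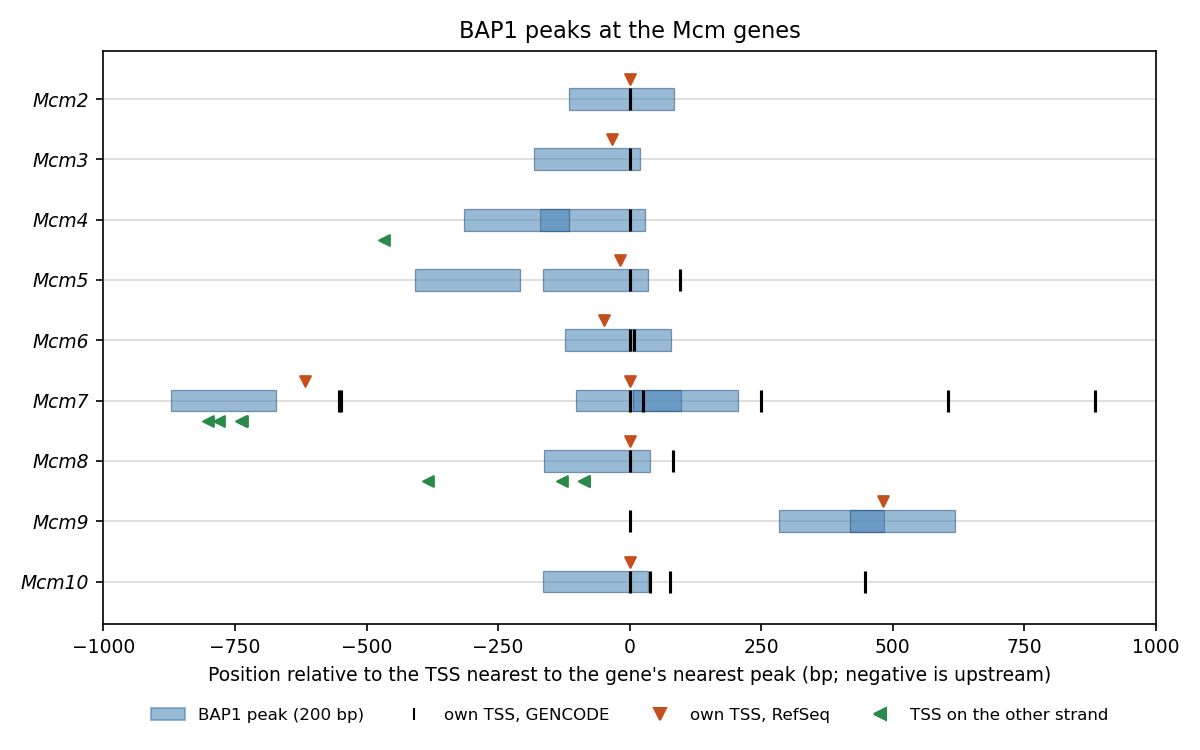
BAP1 peaks (bars, 200 bp) at each Mcm gene, by distance in bp along the gene from the GENCODE TSS nearest to its nearest peak, with the gene's own start sites in GENCODE (black ticks) and RefSeq (orange triangles) and start sites on the opposite strand (green triangles). Bars lie at or just upstream of a start site in each gene except Mcm9, where they coincide with the RefSeq start and not with the GENCODE start.

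Taking the nearest peak of each gene, the signed distance had a median of -62.0 bp with quartiles of -65.0 and -15.0 bp, and 8 of 9 genes had it upstream and within 100 bp of the TSS. In the 8850 protein-coding genes with a peak, the median was -32.5 bp with quartiles of -73.0 and 0 bp, 75.0% had it upstream, and 77.8% had it within 100 bp. From the RefSeq starts of the 8 placed genes, the median was -30.5 bp. Apart from *Mcm9*, the *Mcm* genes thus had the peak where most bound genes had it. Of all 14 peaks, 11 were upstream of the nearest own TSS, the others being the second *Mcm7* peak and both *Mcm9* peaks.

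A head-to-head neighbor, a gene on the opposite strand whose TSS lies within 1 kb upstream, was present at 3 of 9 *Mcm* genes, against 10.3% of protein-coding genes. *Mcm4* and *Prkdc*, which encodes the catalytic subunit of the DNA-dependent protein kinase used in end joining, start 466 bp apart. Both *Mcm4* peaks lay in the interval between them or at its *Mcm4* end, at -396 and -251 bp from the *Prkdc* TSS. *Mcm8* and *Trmt6*, a subunit of a tRNA methyltransferase, start 86 bp apart, and their shared peak was centred at -62 bp for *Mcm8* and -24 bp for *Trmt6*.

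At *Mcm7* and *Ap4m1*, which encodes a subunit of the adaptor complex AP-4, the outermost start of *Mcm7* lay 160 bp from a start of *Ap4m1*, and other transcripts of the genes overlap. The third *Mcm7* peak was closer to *Ap4m1*, at -9 bp from its TSS at 138613275, than to any *Mcm7* start. The other *Mcm7* peaks were at -734 and -842 bp from the nearest *Ap4m1* start. For these 3 pairs, the gene to which a shared peak belongs cannot be told apart from position. Of the 2307 protein-coding genes in such pairs, 85.5% had a gene-proximal peak. The remaining 6 *Mcm* genes had no such neighbor, the closest being *Tpra1* at 3471 bp from *Mcm2*.

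The surroundings of the *Mcm* peaks varied. No further peak lay within 50 kb of the TSSs at 3 of 9 genes, *Mcm3*, *Mcm6* and *Mcm10*, close to the 30.7% of bound protein-coding genes for which this held, and the next peak was 70256, 57299 and 51286 bp away, respectively. *Mcm7* lay in the densest surroundings, with 9 peaks within 50 kb including its own, the next one at *Cops6*, 4638 bp away. The next peak to those of *Mcm2* was 3495 bp away at *Tpra1*. Inside the annotated span of *Mcm9*, a further peak lay 3547 bp from the nearest *Mcm9* TSS and 253 bp from the TSS of *Asf1a*, a histone chaperone gene located within that span.

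Known promoter motifs were then counted in the 14 peaks, on both strands, beside their share of all 13164 peaks, which have the same length. The peaks compared were not matched for base composition, which is given further on. A match describes the letters only and does not show that a factor binds. CCAAT, the word recognised by NF-Y, was present in 10 of 14 peaks and in 7 of 9 genes, all but *Mcm2* and *Mcm9*. It was in 28.5% of all peaks and 30.0% of gene-proximal peaks. Considering only the nearest peak of each gene, 7 of 9 *Mcm* genes had it, against 31.2% of the 8850 bound protein-coding genes. At least 2 CCAAT words stood in 6 peaks, of 6 different genes, against 9.34% of all peaks and 10.5% of gene-proximal peaks.

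The CCAAT words were spaced differently from gene to gene. In *Mcm3*, which had 3 in 1 peak, they were 40 and 45 bp apart. In *Mcm5*, which also had 3, they were 55 and 28 bp apart. *Mcm6* had a pair 43 bp apart. In *Mcm4* and in *Mcm10* a pair was 75 bp apart, and in the second *Mcm7* peak a pair was 71 bp apart. In the printed stretches the *Mcm5* and *Mcm10* words read CCAAT along the gene, those of *Mcm4* and *Mcm6* read in reverse, and *Mcm3* had both.

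E2F words were present in 6 of 14 peaks and in 5 genes, *Mcm3*, *Mcm4*, *Mcm6*, *Mcm7* and *Mcm9*. At *Mcm7* the only E2F word stood in the third peak, the one closer to *Ap4m1*, across the *Ap4m1* TSS at 138613275. Counts below that include *Mcm7* rest on this word. The *Mcm9* words stood in its second peak, 530 and 568 bp downstream of the GENCODE start. Of all peaks 12.5% held E2F words, and of gene-proximal peaks 14.9%. In the nearest peak alone they were found at 3 of 9 genes, *Mcm3*, *Mcm4* and *Mcm6*, against 15.5% of bound protein-coding genes. CCAAT and E2F words occurred together in 5 peaks of 4 genes, against 3.58% of all peaks and 4.31% of gene-proximal peaks. When the E2F words were required to be preceded by 1 more T, 5 peaks of *Mcm3*, *Mcm4*, *Mcm6* and *Mcm7* held a match, against 2.74% of all peaks. With 100 bp added on either side of each peak, an E2F word was found at 8 of 9 genes, all but *Mcm10*, and in 22.0% of all peaks so extended. The *Mcm* peaks overlap in part and share promoters, so these counts are not independent of each other.

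The remaining motifs were counted in the same way. The GC-rich word GGGCGG of SP and KLF factors was in 9 of 14 peaks, near its share of 59.5% of all peaks, and was missing at *Mcm4* and *Mcm5*. The ETS word CCGGAAG was in 5 peaks, of *Mcm4*, *Mcm8*, *Mcm9* and *Mcm10*, against 16.8% of all peaks and 20.2% of gene-proximal peaks. Both *Mcm9* peaks held the same ETS site. The YY1 word AANATGGC was in 1 peak, at *Mcm10*, against 7.60%. TGACGTCA was in 1 peak, at *Mcm5*, against 2.80%, and the word TTTGAA of cell cycle homology regions in 1, at *Mcm2*, against 5.80%. The NRF1 word GCATGCGC and the word ACTACAA of ZNF143 and THAP11 were in 0 of 14 peaks, and in 4.82% and 2.54% of all peaks.

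**Figure D3:**
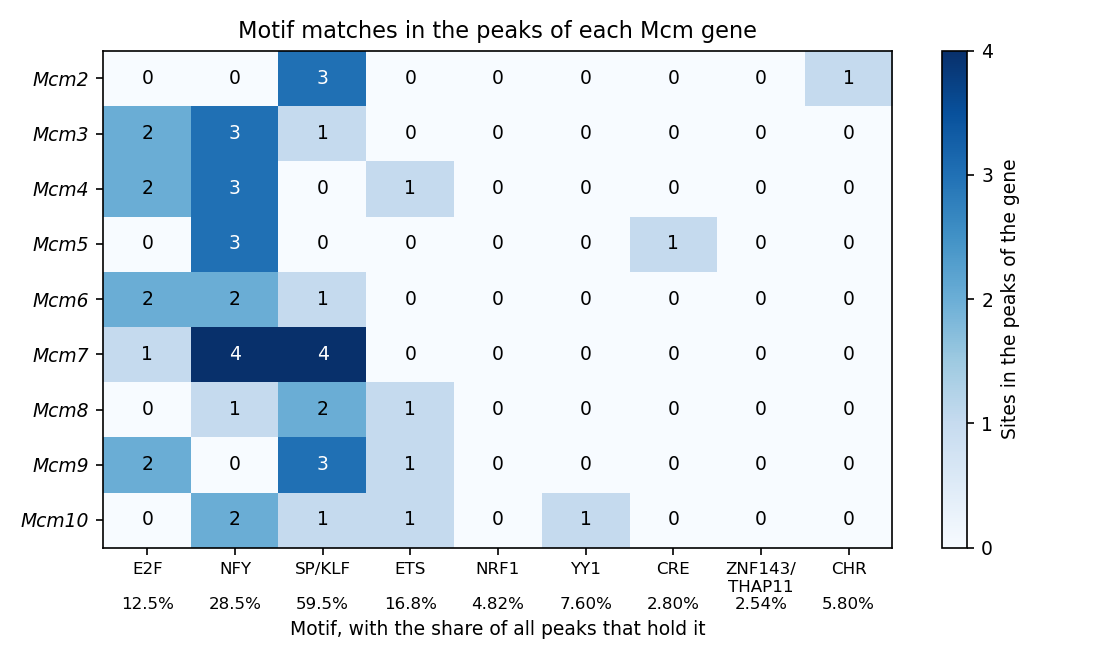
Number of motif sites in the peaks of each Mcm gene (rows), with overlapping matches and sites in overlapping peaks counted once; the percentage under each motif is its share of all 13164 peaks. CCAAT (NFY) sites are present in every row except Mcm2 and Mcm9, with 4 at Mcm7.

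The median *Mcm* peak had less G and C than the median gene-proximal peak. Across all *Mcm* peaks, GC content was 51.5% to 75.0% with a median of 60.8%. The 10073 gene-proximal peaks had a median of 67.0% with quartiles of 61.5% and 72.5%. The median of all *Mcm* peaks was thus below this lower quartile. With only the nearest peak of each *Mcm* gene, the median was 62.0%, just above that lower quartile. *Mcm3*, at 51.5%, and *Mcm10*, at 53.5%, were the lowest of the nearest peaks, and *Mcm9*, at 72.5%, the highest. The CpG ratio, the observed number of CpG over that expected from the C and G content, had a median of 0.995 against 0.876 for gene-proximal peaks, and ranged from 0.598 in the upstream *Mcm5* peak to 1.11 in both *Mcm9* peaks. *Mcm5* thus joined a peak of ratio 1.03 over the TSS to one of 0.598 upstream. Promoters were taken as 500 bp on either side of 1 TSS per gene. In them, the ratio was 0.559 at *Mcm7* to 0.876 at *Mcm8*, with a median of 0.765 for the *Mcm* genes. The medians were 0.764 for protein-coding genes with a gene-proximal peak and 0.296 for those without. For *Mcm7* the TSS used was the outermost start, and the first and second peaks, at 1154 and 1262 bp from it, fell outside this window. For *Mcm10* the TSS used, at 4933390, lay 447 bp downstream of the start that the peak covers. The middle of the *Mcm10* peak, at 4933902, thus fell outside the window, as did that of the second *Mcm9* peak, at 519 bp.

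**Figure D4:**
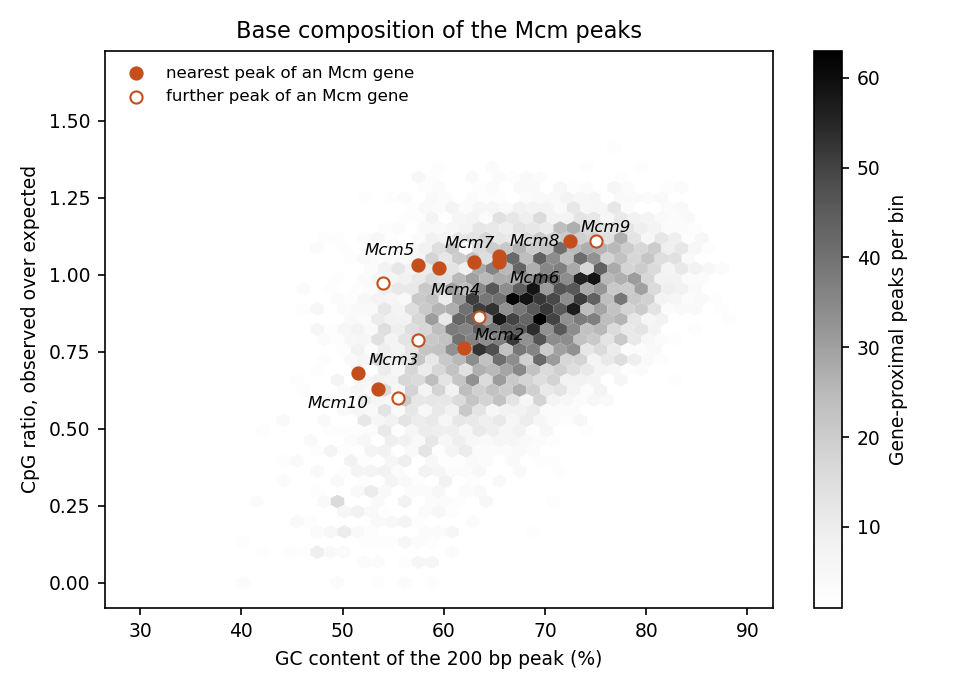
GC content (%) and CpG ratio of the 14 Mcm peaks (orange, filled for the peak nearest to a TSS of its gene, open for further peaks) over all 10073 gene-proximal peaks (grey, darker where more peaks fall). Mcm3 and Mcm10 lie inside the grey cloud, below its lower quartile of GC content, which is 61.5%. The nearest peaks of Mcm4 and Mcm5 are below that quartile too. Both Mcm9 peaks lie above its upper quartile of CpG ratio, which is 1.00. So do the nearest peaks of Mcm4, Mcm5, Mcm6, Mcm7 and Mcm8.

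Other genes of replication, and genes named for Mcm or tied to Mcm8 and Mcm9, were taken from 4 lists. Of the genes for origin recognition and helicase loading, the Orc subunits, *Cdc6* and *Cdt1*, 8 of 8 had a gene-proximal peak, as did 7 of 7 genes that control loading and firing, such as *Gmnn* and *Cdc7*, and 9 of 9 partners of the helicase, such as *Cdc45*. Among other genes named for Mcm or tied to Mcm8 and Mcm9, *Mcmbp* and *Mcm3ap* had a peak and *Mcmdc2* had none, whereas *Hrob* was not matched. In total, 26 of 27 matched genes had a peak, 3 of them more than 1, beside the 39.6% of protein-coding genes given above. That share covers all protein-coding genes, whether expressed or not, and expression was not analysed here. The lists were chosen with earlier results of these data known.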

How the data were processed

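ChIP-Seq was performed on Ba/F3 cells with anti-BAP1 and anti-FLAG antibodies. The authors mapped reads to mm9 and called peaks against input DNA, with Bowtie 1.0.0 and MACS 1.4.2 per the submitters' processing notes. They deposited 1 list of peaks with 4 columns (chromosome, start, end and name in bp), with no score. The threshold and the rule that joined both samples are not given in the sources used here, and another threshold would change every count. The meaning of the order of the list is not stated, and places in it are given only as values in the closing observations. No per-sample column was unmatched (0).

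Samples were grouped by their labels. Peaks were placed on GENCODE M1 by their middle. RefSeq starts were placed on mm9 by exact match. The shares of Mcm genes and of all protein-coding genes with a peak were given 95% Wilson intervals. No tests were run, as there is 1 list without replicates. CpG ratios, 9 motifs and the alternatives were computed with Python 3.11.15, numpy 2.4.6, pandas 2.3.3 and pysam 0.24.0, and figures were drawn with matplotlib 3.10.9. Distances, merging and motif search were tested on simulated data, with bedtools 2.31.1 for the first and second. The members, gene lists and motifs were chosen with earlier results of these data known. The genes named are the 9 Mcm genes, genes with a TSS within 1 kb of their peaks, and members of the lists without a peak. Other genes named, as neighbors or examples, were chosen after their values were seen.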

Additional observations from a re-analysis of the deposited data

How the results depend on the processing

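Of 56 alternative values, 9 moved past the limit for their kind of value and 0 reversed. The limit was a ratio for counts, the counting interval for the share of protein-coding genes, and the quartiles of the *Mcm* values for medians. All 9 *Mcm* genes kept a gene-proximal peak with windows of 500 bp, 2 kb and 5 kb, 1 TSS per gene, protein-coding transcripts, the edge of the peak, or peaks within 500 bp merged. With RefSeq starts, which were added after seeing the data, 8 of 8 placed genes had one, and the median distance went from -62.0 to -30.5 bp. The share of protein-coding genes with a peak was 38.6%, 40.4% and 42.5% with those windows and 37.6% with 1 TSS per gene. Merging left 1 *Mcm* gene with more than 1 peak, *Mcm7*, because the adjoining calls were joined. With 100 bp added on either side, 12 of 14 peaks held an E2F word, 3 a YY1 word and 2 a TGACGTCA, since longer stretches were searched, and the shares of all peaks were 22.0%, 12.3% and 3.43%. The median CpG ratio was 0.765 when promoters of 500 bp in each direction were used in place of peaks. No paired analysis was possible because the result comes from no test and the list pools both samples. For the same reason no replicate could be left out. Depth is unknown, and the list cannot show how strongly BAP1 was enriched at any *Mcm* gene.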

Other observations

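The *Mcm4* peak over the TSS held an 18-base direct repeat, ttccggaggcggagctac, whose copies started 75 bp apart on the strand of the gene. A CCAAT word in reverse followed each copy, also 75 bp apart. The feature was noticed in the sequence and then measured in every peak. An exact direct repeat of at least that length was present in 1.31% of the 10073 gene-proximal peaks, where the median of the longest repeat was 8 bases. In the other 13 *Mcm* peaks the longest repeat was 6 to 11 bases. At *Mcm10* the longest repeat, gccaatcag, was 9 bases long and held both CCAAT words of the peak, 75 bp apart, and 39.9% of gene-proximal peaks had a repeat of at least 9 bases.

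In the list as deposited, the nearer peak came before the further one at *Mcm4* (places 5051 and 7992), *Mcm5* (3611 and 8530) and *Mcm9* (8900 and 9224), as it did in 80.1% of the 2079 protein-coding genes with exactly 2 gene-proximal peaks. At *Mcm7* the order was different, with the peak at the *Ap4m1* start in place 1489 and the others in places 9318 and 9440. What the order stands for is not stated in the sources used here.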
